A study of Mus musculus with 9 samples.

Results

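The proteasome genes described here were all genes on the array whose symbol starts with Psma, Psmb, Psmc, Psmd or Psme and that have a probe set naming them alone, without the interferon-inducible subunits Psmb8, Psmb9 and Psmb10. The rule found 40 of the 12393 genes measured, through 73 probe sets. Of these, 38 encode subunits, dedicated assembly chaperones or activators of the proteasome. The other 2, Psmc3ip, a cofactor of meiotic recombination, and Psme3ip1, a protein that binds the activator encoded by Psme3, share the prefix but are not part of the particle. They are kept in the counts because the rule names them, and are described apart. Whole-skin RNA came from 30-day-old mice whose strain is given as C57BL/DBA/FVB mixed. Control mice (LC) gave 3 pools, and transgenic mice of each of the lines L60, L84 and LA gave 2. The series title ties the work to constitutively active Akt. The labels give neither the transgene of each line, its promoter, the number of mice in a pool nor whether the pools hold different mice. The p-values therefore measure only the spread between these pools.

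The proteasome destroys proteins that carry a chain of ubiquitin. Its core, the 20S particle, is a barrel of alpha rings, which gate the entrance, around beta rings, which hold the cutting sites. The 19S regulatory particle at its end holds a ring of ATPases, which unfold the substrate and push it in, and a lid, which removes the ubiquitin. When proteasome activity is short, the transcription factor encoded by Nfe2l1 raises the genes of all these parts together, and in cultured cells growth signals that pass through Akt and mTORC1 have been tied to the same factor. In skin, interferon exchanges the cutting subunits of the beta ring for those of the immunoproteasome.

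Each value is a score that the authors standardised for a probe set over the 9 arrays to mean 0 and SD 1. A gene's score is the mean over its probe sets, and a difference is in those SD units. A score has no level and no fold, so genes cannot be ranked by abundance and the labelled tissue cannot be checked against the level of its markers. The 18S ribosomal RNA controls had means of 0.339 to 2.09 on the arrays LC 1, L60 1 and L84 1, and of -0.642 to -0.528 on the other 6. Those for the 3′ end of Gapdh scored -1.49 on LC 1 and -1.81 on L60 1, and 0.102 to 1.11 on the other 7. LA 2 and L84 1 had the widest spread over all genes (SDs of 1.20 and 1.13, against 0.676 to 0.836 on the others). In bulk skin, fewer cells of a type and less RNA per cell cannot be told apart.

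Most of the 40 genes shared a pattern over the arrays. Their median score was 0.140, 0.452 and 0.592 on the LC arrays, 0.191 and 0.200 on the L60 arrays, 0.549 and -0.630 on the L84 arrays and -0.364 and -1.48 on the LA arrays. Both LA pools and the pool L84 2 were therefore low, while L84 1 stood with the controls. The median over all 12393 genes stayed between -0.140 and 0.0713 on every array. LA 2 was the lowest of the 9 arrays for 28 of the 40 genes, or 70%, as it was for 20.3% of all genes. L84 1 was the highest for 14 of them (35%, against 21.3% of all genes) and LC 3 for 10 (25%, against 8.29%). LA had the lowest of the 4 genotype means for 31 of the 40 genes, against 29.4% of all genes, and LC the highest for 24, against 20.1%.

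**Figure D1:**
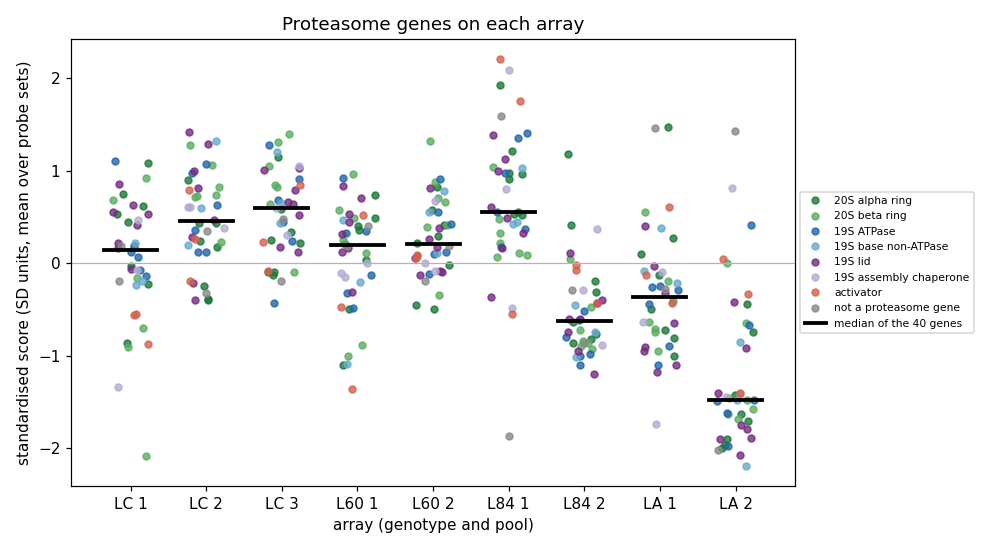
Score of each of the 40 genes (points, coloured by role, in SD units of standardised probe sets) on each of the 9 arrays, with the median as a bar. The medians of LA 1, LA 2 and L84 2 lie below 0, at -0.364, -1.48 and -0.630, and those of the other 6 arrays lie above 0.

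**Figure D2:**
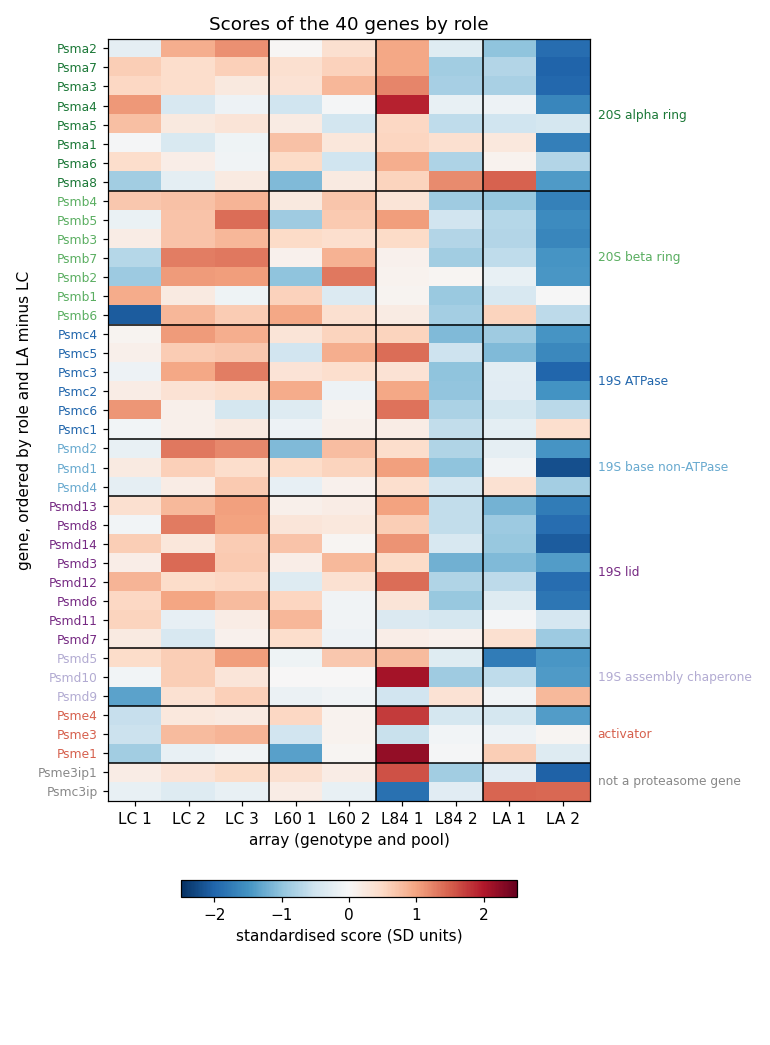
Scores of the 40 genes (rows, grouped by role and ordered within a role by LA minus LC) on the 9 arrays (columns), blue for low and red for high, in SD units. The LA 2 column is blue for 36 of the 40 genes, and the L84 columns are unlike each other in most rows.

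LA differed most from the control skin. The median difference of the 40 genes was -1.40, with 35 of them lower (87.5%), where the median of all genes was 0.247 and 43.9% of genes were lower. No member passed limma's test in LA at an adjusted p under 0.05, where 1.80% of all genes did. At an unadjusted p under 0.05 there were 13 members (32.5%, against 20.8% of all genes). Of these, 12 were lower, or 30%, against 9.91% of all genes, and 1, Psmc3ip, was higher, against 10.9% of all genes. With limma's moderated variance 0 members passed as well, and 19 had an unadjusted p under 0.05 (47.5%, against 26.0% of all genes). Both LA arrays lay below all 3 LC arrays for 23 of the 40 genes (57.5%, against 21.0% of all genes), and above them for Psmc3ip alone (against 27.8%). The size rested on both pools unequally: the median difference was -0.836 without LA 2, the array with the widest scores, and -1.98 without LA 1. Among the arrays low in 18S, the median was -1.02 for LA 1 and -2.27 for LA 2 against the mean of LC 2 and LC 3, with 33 and 37 of the 40 genes lower.

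**Figure D3:**
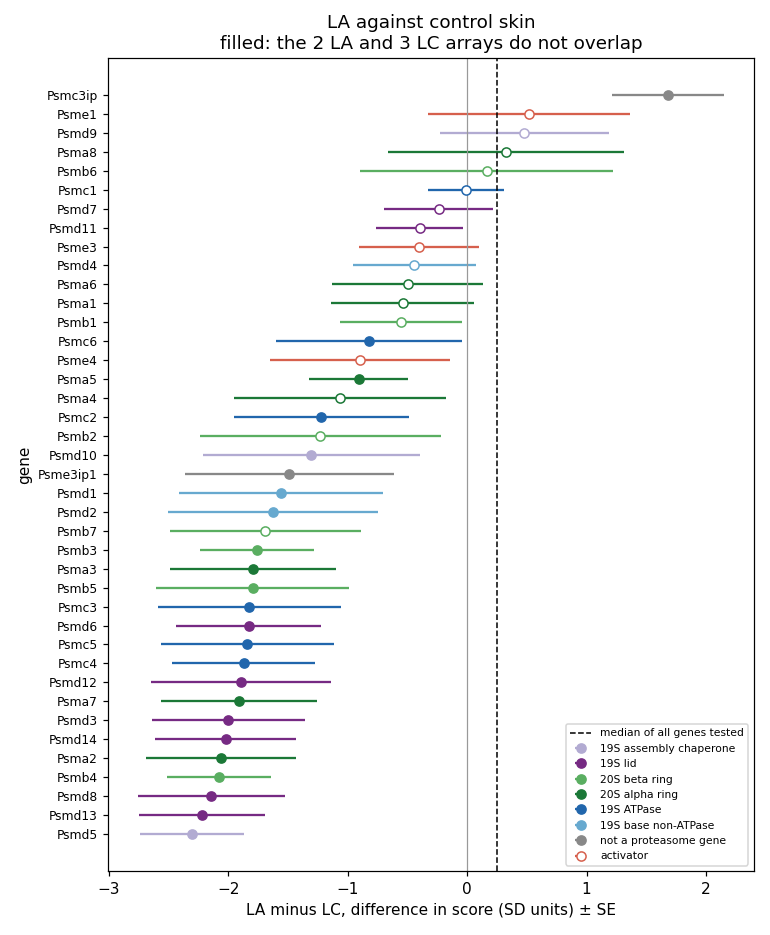
LA minus LC difference of each gene in SD units, with its SE from the fit over 9 arrays, coloured by role. Filled points mark genes whose 2 LA and 3 LC arrays do not overlap, and the dashed line is the median of all genes (0.247). Psmd5, at -2.3, is lowest and Psmc3ip, at 1.68, highest.

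The lowest of all in LA was Psmd5, a chaperone that helps to assemble the ATPase ring. It scored 0.465, 0.608 and 1.05 in LC, -0.106 and 0.668 in L60, 0.800 and -0.297 in L84, and -1.74 and -1.45 in LA. Both LA pools lay below every other array. The difference from LC was -2.3 ± 0.434 (SE; limma adjusted p = 0.0777). Next came 2 lid subunits. Psmd13 scored 0.407, 0.813 and 1.03 in LC and -1.18 and -1.76 in LA, a difference of -2.22 ± 0.525 (adjusted p = 0.114). Psmd8 scored -0.0690, 1.29 and 1.0 in LC and -0.904 and -1.90 in LA, a difference of -2.14 ± 0.615 (adjusted p = 0.152). For both genes LA and LC did not overlap. Psmb4, a beta ring subunit without a cutting site, scored 0.682, 0.735 and 0.843 in LC, the narrowest control range of these 4 genes, and -0.956 and -1.69 in LA (difference -2.08 ± 0.434, adjusted p = 0.0932).

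Promoters are shown for 4 of these genes, because the members moved together: Psmd5 as the lowest in LA, the lid genes Psmd6 and Psmd12 as genes that hold an ETS-type motif, and Psmb5, the chymotrypsin-like cutting subunit, as one that holds the core of the element that Nfe2l1 and Nfe2l2 bind. Each line gives the 250 bases before a transcript start of the gene in RefSeq on GRCm38.p6, 5′ to 3′ on the gene's strand. For Psmd5 that start lies a few bases inside the outermost end of the gene. Capitals mark matches of the Nfe2l1-type core and of the ETS-type motif only. CCAAT and GGGCGG, counted below, are left in lower case. The regions are chr2:34870963-34871212 (minus strand) for Psmd5, chr14:14120946-14121195 (minus strand) for Psmd6, chr11:107479278-107479527 (plus strand) for Psmd12 and chr14:54617996-54618245 (minus strand) for Psmb5.
Psmd5: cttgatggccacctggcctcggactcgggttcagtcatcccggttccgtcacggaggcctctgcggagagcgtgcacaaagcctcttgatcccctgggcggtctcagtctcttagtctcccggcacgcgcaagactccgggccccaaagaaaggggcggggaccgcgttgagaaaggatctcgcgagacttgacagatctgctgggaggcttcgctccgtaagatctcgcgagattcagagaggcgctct
Psmd6: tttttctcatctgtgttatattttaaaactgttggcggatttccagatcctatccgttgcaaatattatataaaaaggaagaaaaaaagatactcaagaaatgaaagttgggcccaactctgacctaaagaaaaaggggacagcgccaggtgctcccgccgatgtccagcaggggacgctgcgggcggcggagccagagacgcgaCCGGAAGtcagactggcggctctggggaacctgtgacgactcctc
Psmd12: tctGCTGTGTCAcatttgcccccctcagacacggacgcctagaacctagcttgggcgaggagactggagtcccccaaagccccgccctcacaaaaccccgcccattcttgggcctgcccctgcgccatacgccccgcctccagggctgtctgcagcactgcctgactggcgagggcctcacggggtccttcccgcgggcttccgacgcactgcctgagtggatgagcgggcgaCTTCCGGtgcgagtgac
Psmb5: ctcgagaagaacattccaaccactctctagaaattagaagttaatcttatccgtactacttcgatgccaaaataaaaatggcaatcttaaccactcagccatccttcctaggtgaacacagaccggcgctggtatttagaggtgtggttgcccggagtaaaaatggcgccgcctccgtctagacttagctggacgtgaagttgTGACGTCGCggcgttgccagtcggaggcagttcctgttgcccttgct
The Nfe2l1-type core was searched as TGACNNNGC and the ETS-type motif as CCGGAAG, both on both strands. In Psmd6 the CCGGAAG match begins 45 bases before the start. In Psmd12 a match on the minus strand begins 17 bases before the start and a minus-strand match of TGACNNNGC 247 bases before it. The match in Psmb5 begins 47 bases before the start.

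RefSeq promoters matched 31 of the 38 proteasome genes, with 33 starts. CCGGAAG stood in 12 of these 33 windows (36.4%, against 6.91% of all 32851 promoter windows of the same length). TGACNNNGC stood in 5 of them (15.2%, against 10.2%), those of Psmb5, Psmb6, Psmc6, Psmd9 and Psmd12. CCAAT stood in 36.4% of them and 33.8% of all windows, and GGGCGG in 57.6% and 32.7%. The 11 genes with CCGGAAG had a median LA minus LC difference of -0.817 and the 20 without it one of -1.79. Psmd12 and Psmd6, whose promoters are shown, were the lowest of the 11 (-1.89 and -1.83), and Psmc1 was the highest (-0.00803). Of those 11, 6 had probe sets of both signs in LA minus LC, as did 2 of the 20, and without such genes the medians were -1.63 (5 genes) and -1.82 (18 genes). The 5 genes with TGACNNNGC had a median of -0.817 and the 26 without it one of -1.59. Without genes of both signs these were -0.816 (4 genes) and -1.83 (19 genes). Of the 5, Psmd12 (-1.89), Psmb5 (-1.79) and Psmc6 (-0.817) were lower in LA, and Psmb6 (0.163) and Psmd9 (0.479) higher. These are letter matches, not binding sites.

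In the alpha ring, 7 of 8 genes scored lower in LA than in LC, with a median difference of -0.987, and 0 passed the test. Psma2 and Psma7, ring members made in all cells, showed it most. Psma2 scored -0.228, 0.901 and 1.15 in LC and -1.0 and -1.91 in LA (difference -2.06 ± 0.627). Psma7 scored 0.616, 0.438 and 0.588 in LC, 0.405 and 0.573 in L60, 0.975 and -0.869 in L84 and -0.725 and -2.00 in LA (difference -1.91 ± 0.652, adjusted p = 0.200). L84 1 was the highest of the 9 arrays for Psma7 and LA 2 the lowest. The exception was Psma8, the alpha subunit known from the testis. Its LA arrays stood at 1.47 and -1.42, on either side of the controls (-0.868, -0.247 and 0.219).

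In the beta ring, 6 of 7 genes scored lower in LA, with a median difference of -1.69, and 0 passed. Of the 3 cutting subunits, Psmb5 scored -0.164, 0.711 and 1.40 in LC, -0.882 and 0.661 in L60, 1.04 and -0.472 in L84 and -0.719 and -1.57 in LA, a difference of -1.79 ± 0.809 (limma adjusted p = 0.285). Its LA and LC arrays did not overlap. Psmb7, the trypsin-like subunit, scored -0.708, 1.28 and 1.31 in LC and -0.639 and -1.48 in LA (difference -1.69 ± 0.796, adjusted p = 0.301). Here LC 1 lay between the LA arrays. Psmb6, the caspase-like subunit, did not go along: it scored -2.09, 0.820 and 0.634 in LC and 0.551 and -0.647 in LA (difference 0.163 ± 1.06). LC 1, one of the arrays high in 18S, was the lowest of all 9 for this gene, and without it the difference was -0.776. Psmb3, a structural beta subunit, differed by -1.76 ± 0.476 (adjusted p = 0.142).

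All 6 ATPase genes, Psmc1 to Psmc6, scored lower in LA, with a median difference of -1.52 and 0 passing. Psmc4 scored 0.0687, 1.07 and 0.913 in LC and -0.892 and -1.48 in LA (difference -1.87 ± 0.598, adjusted p = 0.181). Psmc5 and Psmc3 followed with -1.84 ± 0.722 and -1.82 ± 0.766. Psmc2 and Psmc6 differed by -1.22 and -0.817 and Psmc1 by -0.00803, the last a mean of 2 probe sets that went opposite ways. On L84 2 all 6 ATPase genes scored below 0 (-1.10 to -0.515), and on L84 1 all 6 scored above it (0.177 to 1.40).

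The lid had the lowest median difference of the groups in LA, -1.94 over 8 genes, all of them lower and 0 passing. Averaging probe sets that disagree brings a gene's score nearer 0, so these medians do not rank the parts of the particle. Psmd14, the enzyme that cuts ubiquitin off the substrate, scored 0.622, 0.277 and 0.638 in LC and -0.946 and -2.07 in LA (difference -2.02 ± 0.593, adjusted p = 0.158). Psmd12 scored 0.856, 0.467 and 0.518 in LC and -0.648 and -1.90 in LA (difference -1.89 ± 0.753). LA lay below LC without overlap for both. Psmd3 and Psmd6, lid scaffold subunits, differed by -2.0 ± 0.642 and -1.83 ± 0.605, and Psmd11 and Psmd7 by -0.399 and -0.238. Of the 3 base subunits that are not ATPases, Psmd2, a docking site for ubiquitin shuttles, and Psmd1, a scaffold, differed by -1.63 ± 0.881 and -1.56 ± 0.854, and Psmd4, a ubiquitin receptor, by -0.443 ± 0.514.

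The 3 assembly chaperones did not share a pattern. Beside Psmd5, Psmd10, also known as gankyrin, scored -0.0706, 0.607 and 0.303 in LC, 2.09 and -0.883 in L84 and -0.638 and -1.41 in LA, a difference from LC of -1.31 ± 0.907. Psmd9 differed by 0.479 ± 0.710. Its score on LC 1 was -1.34, and without that array the difference was -0.130. Of the 3 activators measured here, Psme4, the PA200 cap, differed from LC by -0.896 ± 0.752 and Psme3, a subunit of the nuclear activator, by -0.404 ± 0.504. Psme1, an interferon-inducible subunit of the PA28 activator, scored -0.870, -0.192 and -0.0832 in LC, -1.36 and 0.0497 in L60, 2.20 and -0.0217 in L84 and 0.607 and -0.330 in LA. Its L84 arrays both lay above the controls (difference 1.47 ± 0.845, limma adjusted p = 0.577), and its LA arrays overlapped them (0.52 ± 0.845). Its partner Psme2 has a probe set that also names another gene and was not analysed here.

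The 2 genes outside the particle went opposite ways in LA. Psmc3ip scored -0.192, -0.329 and -0.192 in LC, 0.181 and -0.192 in L60, -1.87 and -0.292 in L84 and 1.46 and 1.43 in LA. Both LA arrays lay above all others. The difference from LC was 1.68 ± 0.471 (limma adjusted p = 0.149) and passed without L84 1 or without L84 2 (adjusted p = 0.0226 in each). LC 1, LC 3 and L60 2 hold tied values, and the tie within LC narrows the spread that the test uses. The L84 arrays, at -1.87 and -0.292, lay furthest apart within a genotype. LA minus L84 was 2.52 ± 0.516 for this gene (adjusted p = 0.290). Psme3ip1 scored 0.182, 0.342 and 0.476 in LC and -0.286 and -2.02 in LA (difference -1.49 ± 0.873).

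Genes near 0 in LA were often genes whose probe sets disagreed. Of the 19 members with several probe sets, 10 held probe sets of both signs in LA minus LC: Psma1, Psma5, Psma6, Psmb1, Psmc1, Psmc6, Psmd4, Psmd7, Psmd11 and Psme3. Psmc1 was the plainest case, with probe set differences of -1.88 ± 0.714 and 1.86 ± 0.688 and a gene mean near 0. Psmd11, with the most probe sets (6), had 3 from -1.70 to -1.55 and 3 from 0.518 to 1.18. Psma5 had -2.07, -1.83 and 1.18. Over these 10 genes the lowest probe sets ranged from -2.07 to -1.33 and the highest from 0.0874 to 1.86, so the sign of these genes in LA rests on the probe set. The 21 members with a single probe set had a median difference of -1.69 and the 19 with several one of -0.817. Over probe sets, 55 of 73 were lower in LA (75.3%, against 46.1% of all 20380 probe sets), and 46 had their lowest score on LA 2 (63%, against 22.1%). None of the 73 passed limma's test at the level of probe sets (smallest adjusted p = 0.0886), where 1.15% of all probe sets did. An unadjusted p under 0.05 was found for 21 of them (28.8%, against 19.6% of all probe sets).

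**Figure D4:**
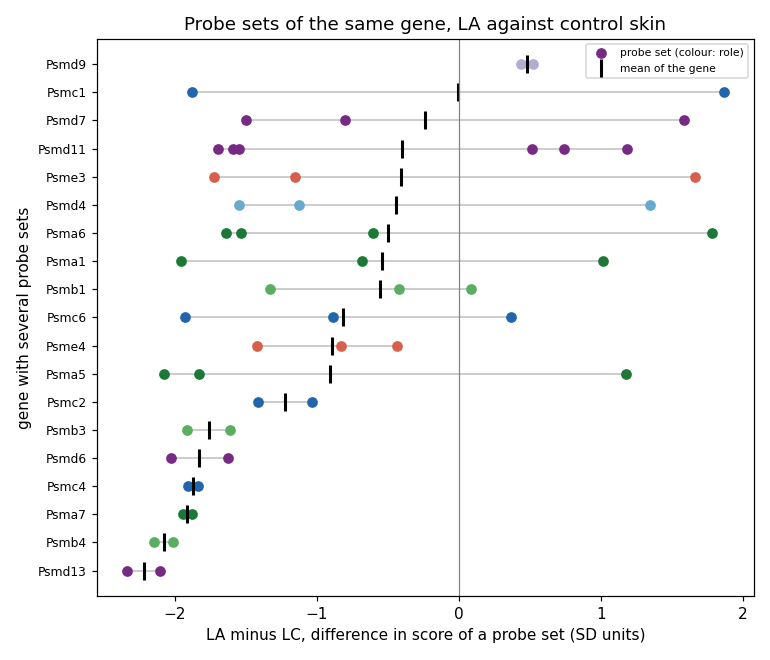
LA minus LC difference of every probe set (points, SD units, coloured by role) for the 19 genes with several, with the mean of the gene as a black tick. The probe sets of Psmd13, Psmb4, Psma7 and Psmc4 lie together below the median of the 40 genes (-1.40), and those of Psmc1 lie on either side of 0.

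The 3 subunits of the immunoproteasome, which replace Psmb6, Psmb7 and Psmb5 in the beta ring, went the other way. Psmb9 scored -0.899, -1.10 and -1.10 in LC, -0.554 and -0.253 in L60, 1.38 and 0.439 in L84 and 1.32 and 0.769 in LA. Every L84 and LA array lay above every LC and L60 array. The difference from LC was 2.08 ± 0.332 in LA (limma adjusted p = 0.0608) and 1.94 ± 0.332 in L84 (adjusted p = 0.139). In LA it passed without L84 1 or without L84 2 (adjusted p = 0.0371 in each). Psmb8 and Psmb10 differed from LC by 1.99 ± 0.457 and 1.99 ± 0.499 in LA and by 1.81 and 1.53 in L84, and their LA and L84 arrays also lay above all LC arrays. Of all genes, 27.8% lay above LC without overlap in LA and 13.8% in L84. In L84 the immunoproteasome genes scored above LC on both arrays, while the standard beta subunits were below 0 on L84 2 for 6 of 7 genes and above 0 on L84 1 for all 7.

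**Figure D5:**
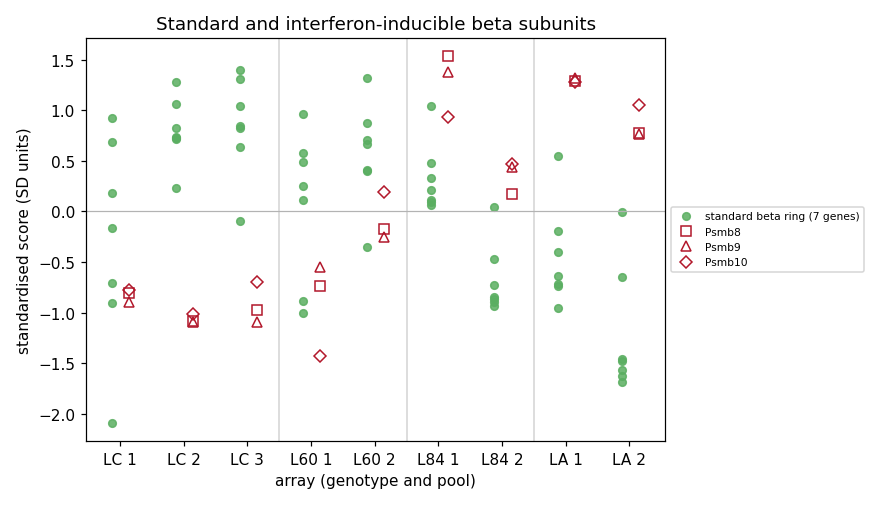
Scores in SD units of the 7 standard beta ring genes (filled points) and of Psmb8, Psmb9 and Psmb10 (open symbols) on each array. On both LA arrays and on L84 2 the open symbols stand above the median of the filled points (-0.639, -1.48 and -0.842), and on the LC arrays they lie at -0.694 or below.

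In L84 the 2 pools gave opposite pictures. The median difference of the 40 genes from LC was -0.336, with 30 lower (75%, against 49.9% of all genes), and 0 passed limma's test, as 0.565% of all genes did. At an unadjusted p under 0.05 there were 0 members with the unmoderated variance (12.2% of all genes) and 0 with the moderated (12.6%). The median was -1.07 without L84 1 and 0.235 without L84 2. L84 2 scored lower than L84 1 for 36 of the 40 genes, against 52.6% of all genes. Of the arrays high in 18S, L84 1 and LC 1 were unlike in the 3′ Gapdh controls (1.11 and -1.49). L84 1 minus LC 1 gave a median of 0.578 with 8 genes lower, and L84 2 against LC 2 and LC 3 averaged gave -1.17 with 35 lower. The arrays did not overlap with LC for Psmb4, Psmd6 and Psmd11, lower, and for Psma1, Psma8 and Psme1, higher (7.5% each way, against 14.7% and 13.8% of all genes). The lowest differences were those of Psmd3 (-1.10 ± 0.642), Psmd6 (-1.08 ± 0.605), Psmb4 (-1.04 ± 0.434, adjusted p = 0.441) and Psmc3 (-1.02 ± 0.766). The highest were those of Psme1, given above, Psma8 (1.16 ± 0.988), Psme4 (0.685 ± 0.752) and Psma4, an alpha ring subunit (0.681 ± 0.886). Psma4 and Psme4 scored 1.92 and 1.75 on L84 1 and -0.192 and -0.432 on L84 2.

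In L60 the 40 genes stayed near the controls. The median difference was -0.246, with 30 lower (75%, against 45.2% of all genes), and 0 passed limma's test, as 0% of all genes did. At an unadjusted p under 0.05 there were 0 members with the unmoderated variance (4.72% of all genes) and 0 with the moderated (3.75%). The median was -0.148 without LC 2, -0.0951 without LC 3, -0.0993 without L60 1 and -0.418 without LC 1. Psma5, Psmd12 and Psmd13 lay below LC without overlap and Psma1 above it (7.5% and 2.5%, against 10.8% and 14.4% of all genes). The lowest were Psmd2 (-0.936 ± 0.881), Psmb5 (-0.759 ± 0.809), Psmd13 (-0.599 ± 0.525) and Psmd12 (-0.579 ± 0.753). The highest were Psmb6 (0.892 ± 1.06), Psma1 (0.687 ± 0.595), Psme4 (0.324 ± 0.752) and Psmc3ip (0.232 ± 0.471). For Psmb5 the L60 arrays stood at -0.882 and 0.661, and only the first lay below the controls.

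Between the lines no member passed. LA against L60, which shares the LA arrays with the comparison above, gave a median difference of -1.22 with 34 of 40 lower (85%, against 45.5% of all genes), and 23 genes whose LA arrays lay below both L60 arrays (57.5%, against 23.7%). It was -0.587 without LA 2. The smallest p was that of Psmd5 (-1.88 ± 0.476, limma adjusted p = 0.182). LA against L84 gave a median of -0.902 with 33 lower (82.5%, against 46.4% of all genes), but -0.169 without L84 1, -1.70 without L84 2, -1.50 without LA 1 and -0.461 without LA 2. L84 against L60 gave -0.0359 with 23 lower (57.5%, against 53.4% of all genes), and the median went from -0.757 without L84 1 to 0.502 without L84 2. The unadjusted p was under 0.05 for 8 members in LA against L60 (20%, against 16.2% of all genes), 5 in LA against L84 (12.5%, against 10.6%) and 0 in L84 against L60 (against 8.03%). Of all genes 0.629%, 0.0161% and 0.113% passed. The mean of the 3 lines against LC gave -0.604 with 32 lower (80%, against 43.9% of all genes), 0 passing and 3 at an unadjusted p under 0.05, Psmb4, Psmd5 and Psmd13 (7.5%, against 13.3% of all genes). It moved to -0.911 without L84 1 and to -0.375 without L84 2. Over the 4 genotypes limma's F test passed 0 members, with 4 at an unadjusted p under 0.05 (10%, against 14.8% of all genes). Among all genes 0.637% passed in the mean of the lines and 0.734% in the F test.

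Genes that work with the proteasome were followed through a list of 27 measured genes. In LA 24 of them scored lower, with a median difference of -1.05, and 0 passed limma's test. That is 88.9% lower, against 43.9% of all genes. The 5 with an unadjusted p under 0.05 in limma's test were all lower (18.5%, against 9.91% of all genes). In either direction 20.8% of all genes had such a p. Both LA arrays lay below all LC arrays for 14 of the 27 (51.9%, against 21.0% of all genes). In L84 15 scored lower (55.6%, against 49.9% of all genes, median -0.0542) and in L60 18 (66.7%, against 45.2%, median -0.229), with 0 passing in either. The chaperones of 20S assembly Psmg1 and Pomp differed from LC in LA by -2.05 ± 0.515 (limma adjusted p = 0.127) and -1.83 ± 0.77. Psmg1 scored 1.25, 0.0781 and 0.228 in LC and -1.34 and -1.72 in LA, without overlap, and its score of 0.0781 is shared by LC 2, both L60 arrays and L84 2. Usp14, a ubiquitin-trimming enzyme bound to the proteasome, differed by -0.00526 and Vcp, the unfolding ATPase, by -0.81 ± 0.591. Of the factors that drive these genes, Nfe2l1 scored -1.14, -0.344 and -0.123 in LC, -0.711 and 0.187 in L60, 2.18 and -0.0119 in L84 and 0.787 and -0.821 in LA. It differed from LC by 0.518 ± 0.881 in LA and by 1.62 ± 0.881 in L84. Its relative Nfe2l2 differed by 0.686 ± 0.8 in LA, -0.0916 ± 0.8 in L84 and 1.65 ± 0.8 in L60.

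Markers of the cells of skin also differed between LA and LC. Hair shaft keratins scored lower for 9 of 9 genes, all of them past limma's test, with array means from -0.987 to -0.909 in LA and from 1.10 to 1.18 in LC. Melanocyte markers were lower for 5 of 5, 3 of them past the test (-1.05 to -0.681 against 0.625 to 0.85). Markers of macrophages (0 of 7 lower, array means of 0.784 to 1.30 against -0.563 to -0.392), lymphocytes (0 of 7, 0.374 to 1.09 against -0.965 to -0.188) and fibroblasts (0 of 7, 0.611 to 0.966 against -0.311 to -0.0936) scored higher without passing. Basal keratinocyte markers were lower for 1 of 7 with 2 past the test (-0.116 to 0.484 against -0.991 to -0.538), and skeletal muscle markers for 1 of 10 (0.297 to 0.881 against -0.541 to -0.299). Differentiating epidermis markers were lower for 3 of 7 with 1 past the test (-0.168 to 0.167 against -0.265 to 0.0923). Fat markers were lower for 5 of 6 (-0.668 to 0.286 against 0.376 to 0.611), endothelium for 3 of 6 (-0.286 to 0.243 against -0.221 to 0.0617) and blood for 2 of 3 (0.159 to 0.659 against 0.0237 to 0.835). In L84 the hair shaft markers were also lower than in LC for 9 of 9, all 9 past limma's test, with array means of -1.04 and -0.951. Melanocyte markers were lower in L84 for 4 of 5, 2 of them past the test, and basal keratinocyte markers for 1 of 7 with 2 past it. In L60 hair shaft markers were lower for 9 of 9, with 0 past the test. The L84 arrays lay far apart in markers of fibroblasts (-1.53 to 0.591), macrophages (-1.30 to 0.638), skeletal muscle (0.142 to 1.53) and basal keratinocytes (0.419 to 1.36). The L84 arrays also differed in markers of endothelium (-0.80 to 0.23), differentiating epidermis (-0.29 to 0.50), blood (-0.99 to -0.27) and lymphocytes (-0.08 to 0.41). They lay close together in markers of fat (-0.669 to -0.667) and melanocytes (-0.653 to -0.525). The L60 arrays also lay far apart in markers of macrophages (-0.815 to 0.880), differentiating epidermis (-0.544 to 0.672) and skeletal muscle (-1.20 to -0.454). The part of these cell types in the proteasome scores was not tested.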

How the data were processed

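RNA of 9 pools of mouse skin was hybridised to Affymetrix arrays, and RMA is named, without a version, per the submitters' processing notes. The deposited values are a score, standardised by the authors for each probe set over the 9 arrays (row means within 1.9e-07 of 0, SDs within 7.5e-08 of 1). The scale before that step is not given in the sources used here, and the number of arrays limits the precision. Of 22690 probe sets, 20380 named 1 gene through the platform annotation, and 20351 of these matched a GRCm38.p6 gene record. Scores were averaged per gene (12393 genes).

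Genotype means were fitted over all 9 arrays with limma 3.58.1 in R 4.3.3 (5 residual degrees of freedom) and contrasts tested without variance moderation, with Benjamini-Hochberg adjustment over all genes and calls at an adjusted p under 0.05. In 26.0% of the 73 member probe sets some values were tied, and in 8 probe sets within a genotype. Which results rest on ties was not tested.

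The members, lists and tests were chosen with earlier results of these data known. The genes named were the 4 highest and 4 lowest members of each line against LC and a set by role. Other members were added after their values were seen, as were the genes whose promoters are shown. Alternatives were leaving out each array, the arrays high in 18S or those with the widest scores, a replicate block, only the groups compared, moderated variance, 1 probe set per gene, every probe set on its own, array medians set to 0 and, chosen after the data were seen, leaving out Psmc3ip and Psme3ip1.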

Additional observations from a re-analysis of the deposited data

How the results depend on the processing

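Of the median differences and counts of members, those not named here kept their value within 1 residual SD of the array medians, 0.534, or within 1.5 times the count, under the alternatives tried. Leaving out single arrays gave medians of -0.418 to -0.0951 in L60 minus LC and -0.911 to -0.375 in the mean of the lines minus LC, and -1.07 to 0.235 for the median in L84 minus LC, -1.98 to -0.836 in LA minus LC, -0.757 to 0.502 in L84 minus L60, -1.72 to -0.587 in LA minus L60 and -1.70 to -0.169 in LA minus L84. It gave 0 to 1 members passing in LA minus LC, in LA minus L84 and over the 4 genotypes, and the 1 was Psmc3ip. A lone array left in a genotype is taken to vary like the other genotypes. With only the arrays of LA and LC, 1 member passed (adjusted p = 0.0429), again Psmc3ip. Without the arrays high in 18S the medians were -1.17 in L84 minus LC, -0.874 in L84 minus L60 and -0.169 in LA minus L84. Without the arrays with the widest scores they were -1.07 in L84 minus LC, -0.836 in LA minus LC, -0.757 in L84 minus L60, -0.587 in LA minus L60 and 0.178 in LA minus L84. These settings use fewer arrays, and the cause of the change was not tested beyond that.

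Setting array medians to 0 moved the median of all genes in LA minus LC from 0.247 to 0.115 and that of the members from -1.40 to -1.53, with 35 lower in both. It changed the sign of 2 members in L60 minus LC, 4 in L84 minus L60 and 2 in the mean of the lines minus LC, and of 0 in the other comparisons. It moved the share of lower calls among all genes from 54.7% to 64.7% in LA minus LC and from 85.7% to 71.4% in L84 minus L60. Whether the replicate numbers pair the pools is not known. Deviations of arrays with the same number correlated at -0.0833 to 0.345 across genes, highest for L84 with LA. In a genotype with 2 arrays the deviations mirror each other, so these correlations cannot settle it. The arrays high in 18S, LC 1, L60 1 and L84 1, all carry the number 1. With replicate number as a block the LA minus LC median was -1.32 and 0 members passed.

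Single genes, none of them past the threshold, changed sign in these cases. In LA minus LC, leaving out single arrays gave -1.12 to 1.77 for Psma8, -0.130 to 0.931 for Psmd9, -0.776 to 0.762 for Psmb6, -0.339 to 0.323 for Psmc1 and -1.06 to 0.173 for Psmd4. Without the arrays high in 18S Psmd9 stood at -0.130 and Psmb6 at -0.776. Psmc1 stood at 0.0622 with the replicate block, Psmc6 at 0.366 with its first probe set and Psmd4 at 0.173 without the widest arrays. In L60 minus LC, leaving out single arrays gave -1.53 to 0.013 for Psmb5 and -0.0467 to 1.41 for Psmb6. Without the arrays high in 18S Psme4 stood at -0.167 and Psmb6 at -0.332, and Psma1 stood at -0.216 with its first probe set. In L84 minus LC, leaving out single arrays gave -0.376 to 1.74 for Psma4 and -0.407 to 1.78 for Psme4. Without the widest arrays they stood at -0.376 and -0.407, and Psme4 at -0.677 without the arrays high in 18S. The scores hold no signal or background, so what dimness of a probe set limits could not be measured.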
